A study of Brassica napus and Camelina sativa and Thlaspi arvense with 24 samples.

Results

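DCL1 is the Dicer-like endonuclease that cuts microRNA (miRNA) precursors in plants. The 5 genes described here are expressed copies of DCL1 in 3 oilseed species of the Brassicaceae, out of 238537 gene IDs in the tables of the 3 species. They are BnaC05g000850.3DH and BnaA10g000890.3DH in *Brassica napus* (called the C05 and A10 copies after the chromosome in their IDs), Csa14g002140 and Csa17g001520 in *Camelina sativa* (the Csa14 and Csa17 copies), and CAH2039182 in pennycress (*Thlaspi arvense*). The members were chosen as expressed orthologs of *A. thaliana* DCL1 (AT1G01040), so that they are expressed is not a finding. The deposited IDs carry no gene names, so the link to *A. thaliana* rests on a numerical match with the study's table of summed expression, which these 5 IDs, and no other set of IDs searched, fitted. The study sequenced RNA of fully expanded cotyledons and first true leaves of young, untreated seedlings from a growth chamber. DH12075 and N99 are lines of *B. napus*, DH55 is a line of *C. sativa*, and the pennycress plants came from a line collected in the field. With 3 biological replicates of each tissue in the 4 lines there were 24 libraries. The values are TPM (a length-corrected share of all transcripts in a library, scaled to a sum of 1000000). TPM do not keep read numbers, so the depth of the libraries is unknown. N99 reads were quantified against transcripts of DH12075, so a transcript that differs between the lines can be listed too low in N99. No sequences are shown, as no genome of these lines was used here.

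In plants, a primary miRNA transcript folds into a hairpin, and DCL1 cuts it in the nucleus to release a short duplex of the miRNA and its passenger strand. HYL1 (a double-stranded RNA-binding protein) and SERRATE help DCL1 to cut at the right place, and CDC5 and the MOS4-associated complex, to which MAC3A and MAC5A belong, act in the same process. The mature miRNA is loaded into AGO1 and directs cleavage or translational repression of target mRNAs, such as those for SPL transcription factors, for auxin receptors and for the copper/zinc superoxide dismutase CSD1. In *A. thaliana* the DCL1 transcript is itself cut by a miRNA, and complete loss of DCL1 stops embryo development.

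One library stood apart in composition. In N99 cotyledon replicate 2 the 10 most abundant genes held 37.1% of all TPM, against 7.58 to 13.5% in the other 23 libraries, so every other gene of that library is listed lower. All 12 *C. sativa* and 4 pennycress IDs of the photosynthesis genes LHCB6, PSBP1, PSAO and PETE2 were higher in leaf than in cotyledon, with log2 differences of 0.39 to 0.84 and 1.14 to 2.08. Of all IDs, 7.97% were called higher in leaf in DH55 and 15.6% in pennycress. These genes were not paired with *B. napus* IDs and the seed storage genes were paired in no species, so they were not analysed there. PCNA1, a DNA replication clamp used as a marker of dividing cells, was higher in leaf in *B. napus* (BnaA09g066110.3DH, 1.93 ± 0.414 TPM in cotyledon and 11.7 ± 0.662 TPM in leaf of DH12075, SD, n = 3). In DH12075 20.8% of all IDs were called higher in leaf. Only this 1 of the 5 dividing-cell genes was paired in *B. napus*. In *C. sativa* 0 of the 7 dividing-cell IDs tested passed the test in limma, and in pennycress 0 of 1 (3 of 7 and 0 of 1 at an unadjusted p under 0.05). There 37.4% and 36.1% of all IDs were called in either direction. The PCNA1 copies of *C. sativa* had differences of 0.33 to 0.38. The 3 IDs under the unadjusted threshold went both ways, with KNOLLE copies at 0.39 and 0.39 and a NACK1 copy at -0.28.

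DCL1 was at a low to middle level. Single copies of *B. napus* and *C. sativa* ranged from 2.03 TPM in a DH12075 leaf library to 4.60 TPM in an N99 leaf library. The single pennycress gene ranged from 8.80 to 12.8 TPM. The pennycress gene lay above 45.9 to 52.6% of the IDs with a value above 0 in its libraries. The C05 copy lay above 51.6 to 64.1% of them in DH12075 and 63.6 to 67.5% in N99, the Csa14 copy above 48.4 to 58.0% and the Csa17 copy above 49.7 to 53.7%. The pennycress table holds 26332 IDs and that of each *B. napus* line 123329, with the same sum of TPM in each library.

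The C05 copy of *B. napus* fell from cotyledon to leaf in DH12075 and was the only one of the 5 genes called between tissues in any line. In DH12075 cotyledons it was at 3.69, 3.75 and 4.41 TPM in replicates 1 to 3, and in leaves at 2.39, 2.52 and 2.03 TPM. All 3 leaf libraries lay below all 3 cotyledon libraries. The means were 3.95 ± 0.399 and 2.32 ± 0.252 TPM (SD, n = 3), and the log2 difference of TPM + 1 was -0.58 (SE 0.12, limma adjusted p = 0.00551). Of all 41199 IDs tested in DH12075, 29.5% were called lower in leaf and 50.4% were called in either direction, and 61.1% had a smaller absolute change than the C05 copy. Its call was thus 1 of many in this line, and the median ID changed by -0.08. PCNA1 moved in the opposite direction between these tissues, and its part in the DCL1 difference was not tested.

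The A10 copy did not show a difference between tissues in DH12075. It was at 2.96, 2.38 and 3.29 TPM in cotyledons and at 2.87, 2.77 and 2.14 TPM in leaves, so the groups overlapped. The log2 difference was -0.11, with a 95% interval of -0.44 to 0.22 (limma adjusted p = 0.543).

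In N99 neither copy passed the test, and the leaf values were not lower on average. The C05 copy was at 4.48, 3.32 and 4.41 TPM in N99 cotyledons and at 3.80, 3.96 and 4.60 TPM in leaves. The lowest of these values came from cotyledon replicate 2, the library of unusual composition. The log2 difference was 0.02 (interval -0.45 to 0.49, limma adjusted p = 0.963), and it was -0.09 without that library. The A10 copy was at 3.44, 2.80 and 3.34 TPM in cotyledons and at 3.16, 4.02 and 4.58 TPM in leaves. Its log2 difference was 0.22 (interval -0.24 to 0.69, limma adjusted p = 0.501), and 29.4% of the 41254 IDs tested in N99 were called.

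The *C. sativa* copies were close in level and changed little. The Csa14 copy was at 2.50, 2.40 and 3.36 TPM in cotyledons and at 2.60, 2.91 and 2.67 TPM in leaves, and these groups overlapped. The Csa17 copy was at 2.88, 2.55 and 2.68 TPM in cotyledons and at 2.33, 2.40 and 2.12 TPM in leaves. All its leaf libraries lay below all its cotyledon libraries, but the log2 difference of -0.17 (interval -0.38 to 0.04) did not pass the test (limma adjusted p = 0.168). For the Csa14 copy the difference was -0.00 (interval -0.29 to 0.28, adjusted p = 0.988). In DH55 37.4% of 41797 IDs were called and the median ID changed by -0.19, so the Csa17 copy lay near the median of all IDs and the Csa14 copy above it.

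The pennycress gene was at 12.4, 8.80 and 12.8 TPM in cotyledons and at 11.7, 11.5 and 10.4 TPM in leaves. The cotyledon libraries spanned the leaf libraries on both sides. The means of 11.3 ± 2.21 and 11.2 ± 0.708 TPM (SD, n = 3) gave a log2 difference of -0.00, with an interval of -0.37 to 0.37 (limma adjusted p = 0.992), where 36.1% of 14617 IDs were called.

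**Figure D1:**
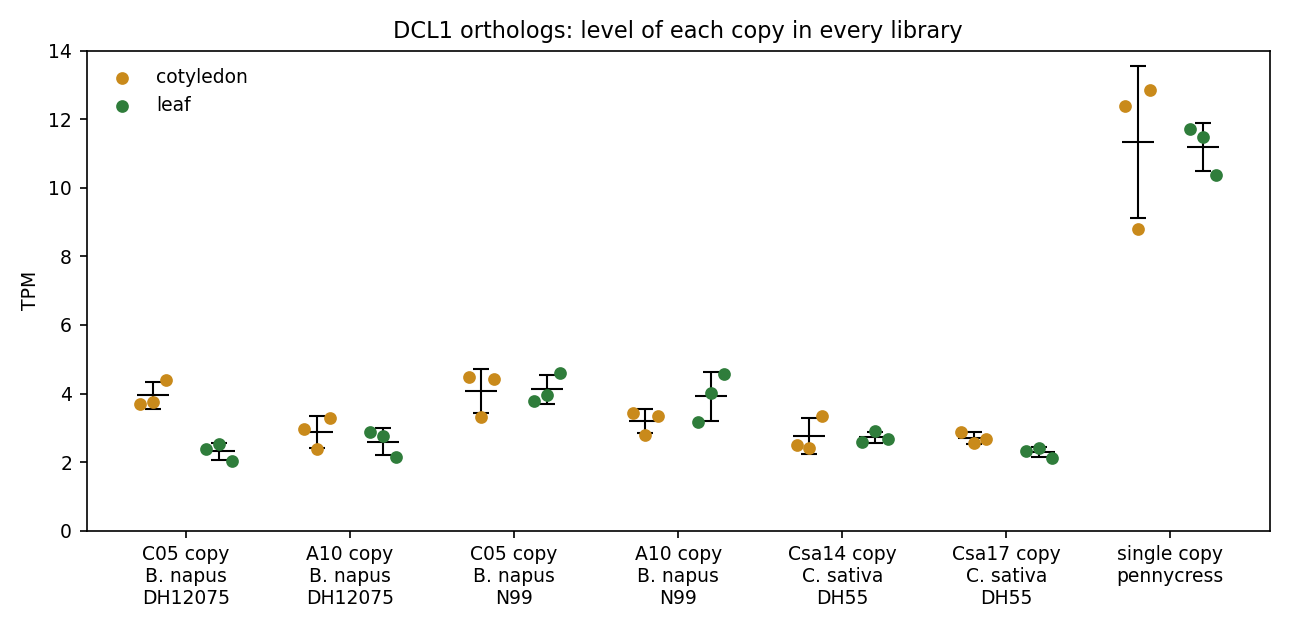
Level of each DCL1 copy (y axis, TPM) in every library, by copy and line (x axis). Points are libraries, long horizontal marks are means and bars are 1 SD over 3 replicates; the 3 DH12075 leaf values of the C05 copy, 2.03 to 2.52 TPM, lie below its cotyledon values of 3.69 to 4.41 TPM.

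Both *B. napus* copies were higher in leaves of N99 than in leaves of DH12075, and the cotyledons of the lines did not show such a difference. In leaf the C05 copy was at 3.80 to 4.60 TPM in N99 and at 2.03 to 2.52 TPM in DH12075, without overlap. The log2 difference was 0.63 (SE 0.15, limma adjusted p = 0.00321), higher in N99 in all 3 libraries. The A10 copy was at 3.16 to 4.58 TPM in N99 leaf and at 2.14 to 2.87 TPM in DH12075 leaf, also without overlap, with a log2 difference of 0.45 (SE 0.16, limma adjusted p = 0.0343). Of 42767 IDs tested, 22.6% were called higher in N99 leaf and 44.3% were called in either direction. The call of the A10 copy was lost in 6 of the 12 fits that left out 1 library. These were the fits without DH12075 cotyledon replicate 1, any of the 3 DH12075 leaf replicates, or N99 leaf replicate 2 or 3, with differences of 0.35 to 0.51 and adjusted p of 0.0503 to 0.141. It was also lost with the replicate number as a block (adjusted p = 0.0515). The call of the C05 copy was kept in all 12, with adjusted p up to 0.0186.

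In cotyledon the difference between the lines was 0.03 for the C05 copy (interval -0.29 to 0.35, limma adjusted p = 0.884) and 0.12 for the A10 copy (interval -0.23 to 0.46, adjusted p = 0.575), where 47.9% of IDs were called. The interaction term, which is the line difference in leaf minus that in cotyledon, was 0.60 for the C05 copy (SE 0.21, interval 0.15 to 1.04) and did not pass the adjusted threshold (limma adjusted p = 0.0867), and for the A10 copy it was 0.33 (SE 0.23, adjusted p = 0.391). Of all IDs 10.6% passed this test. When libraries were rescaled without their 10 most abundant genes, which sets aside the abundant transcripts of N99 cotyledon replicate 2, the interaction of the C05 copy was 0.49 (adjusted p = 0.0465), and after quantile normalization it was 0.47 (adjusted p = 0.0300).

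Over both tissues, with tissue as a covariate, the C05 copy was higher in N99 by 0.33 (SE 0.13, limma adjusted p = 0.0481) and the A10 copy by 0.28 (SE 0.12, adjusted p = 0.0621), where 53.8% of IDs were called. The first value lay at the threshold. It no longer passed in 10 of the 12 fits that left out 1 library, all except those without DH12075 cotyledon replicate 3 or N99 cotyledon replicate 2, and the differences in those 10 fits were 0.27 to 0.35. The A10 copy passed when either of these 2 libraries was left out, with differences of 0.34 and 0.33.

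**Figure D2:**
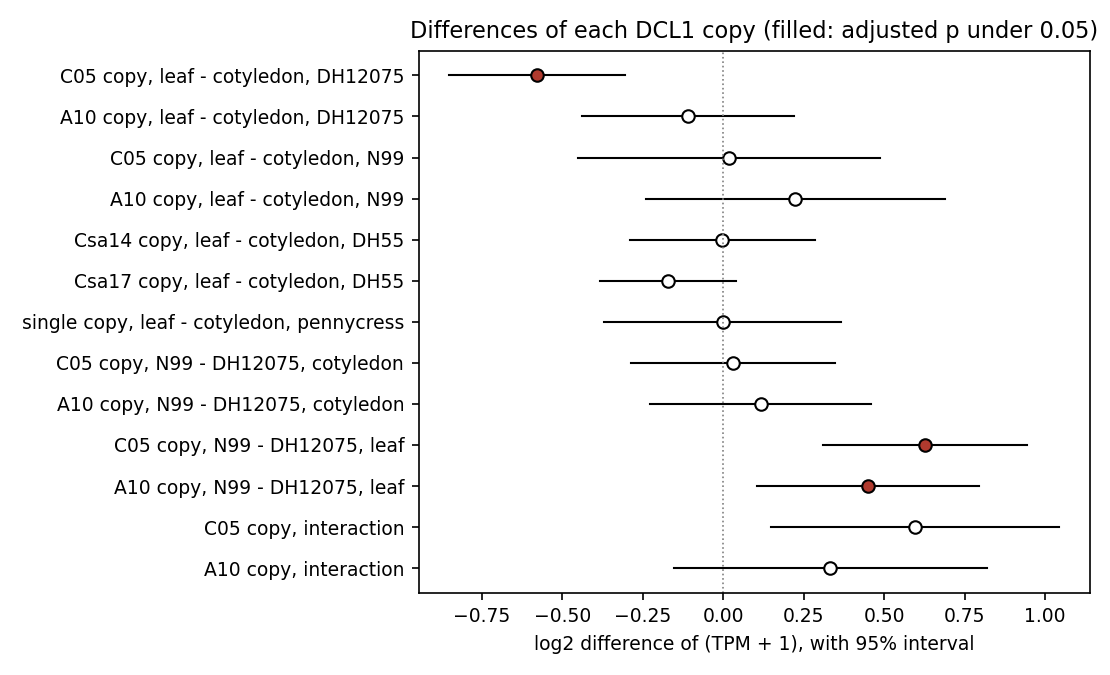
Log2 differences of TPM + 1 for each DCL1 copy (x axis), 1 line per copy and comparison (y axis), with 95% intervals from limma. Filled points passed an adjusted p of 0.05: the C05 copy in DH12075 (-0.58) and both copies in leaf between lines (0.63 and 0.45).

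The genes beside the *B. napus* copies in ID order differed in both directions. Of the 20 IDs next to the C05 copy, 12 were at a mean of at least 1 TPM. In leaf, 8 of these 12 had a higher mean in N99 and their median difference was 0.43, beside 0.02 over all IDs tested. In DH12075, 6 of them had a lower mean in leaf than in cotyledon, with a median change of 0.00 beside -0.08. Of the 20 IDs next to the A10 copy, 9 were at that level, 3 had a higher mean in N99 leaf, and the median was -0.19. Over both tissues 7 of the 12 and 2 of the 9 were higher in N99, with medians of 0.23 and -0.56 beside -0.04 over all IDs tested. These neighbours were counted by the sign of their difference, with no test. ID numbers were used only to find neighbours and carry no distance.

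Averaged over both tissues, the 2 copies of *B. napus* and of *C. sativa* contributed similar amounts. Over the 6 libraries of a line, the C05 copy held 52.6 ± 6.22% of the summed DCL1 TPM in DH12075 and 53.7 ± 3.14% in N99, and the Csa14 copy held 52.3 ± 3.91% in DH55 (SD, n = 6). The C05 copy was the higher one in 3 of 6 DH12075 libraries and in 5 of 6 N99 libraries, and the Csa14 copy in 4 of 6. None of these 3 ratios differed from even in an exact sign-flip test (p = 0.375, 0.0938 and 0.219, two-sided, and 0.45, 0.281 and 0.438 adjusted over the 6 ratio tests). Among genes paired with exactly 2 IDs, the median share of the higher copy was 60.5% in DH12075, 60.1% in N99 and 60.3% in DH55 (332, 336 and 222 genes). The share was smaller than that of DCL1 in 11.7, 20.2 and 14.4% of these genes. In *C. sativa* a gene was most often paired with 3 IDs (1039 of 1395 genes), and DCL1 was among the 272 with 2. Copies at or near 0 TPM are not counted in these numbers.

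The share of the C05 copy did not overlap between the tissues of DH12075, though the tissue difference of the copy ratio over both lines missed the threshold after adjustment. The C05 copy held 55.5, 61.2 and 57.3% of the sum in DH12075 cotyledons and 45.5, 47.7 and 48.8% in leaves. It was the higher copy in all 3 cotyledon libraries and the lower one in all 3 leaf libraries. These shares use the same DH12075 values as the fall of the C05 copy given above. How often other copy pairs separate by tissue in this way was not counted. In N99 it held 56.6, 54.2 and 57.0% in cotyledons and 54.6, 49.6 and 50.1% in leaves, which overlap. Over both lines the log2 ratio of C05 to A10 was lower in leaf, with a difference of -0.44 (exact permutation of tissue within line, two-sided p = 0.01, adjusted p = 0.06 over 6 ratio tests, where the smallest possible p was 0.005). The ratio did not differ between the lines (difference 0.06, exact p = 0.555). For Csa14 against Csa17 the shares were 46.5, 48.5 and 55.6% in cotyledons and 52.7, 54.8 and 55.7% in leaves (difference of the log2 ratio 0.24, exact p = 0.3, where 3 against 3 libraries cannot give less than 0.1).

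**Figure D3:**
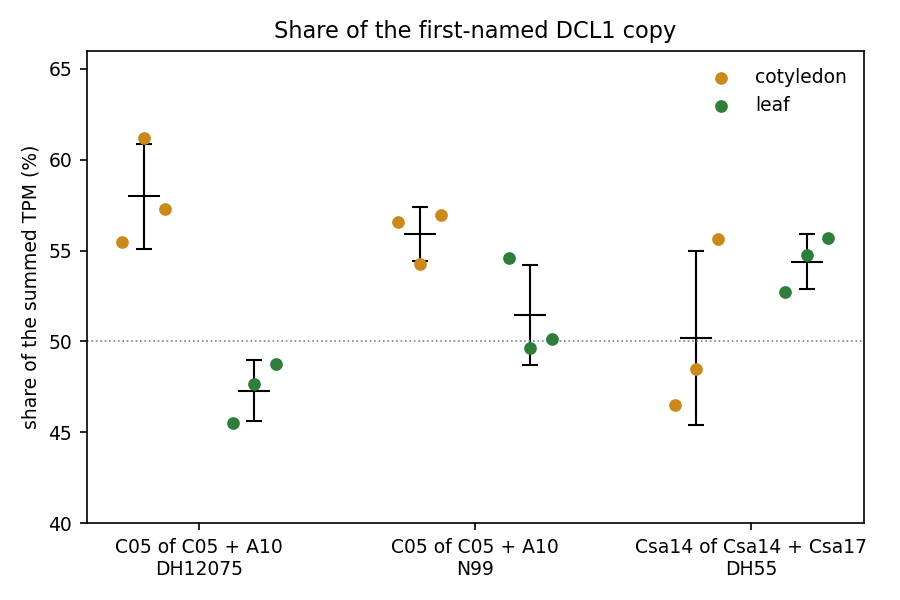
Share of the first-named copy in the summed TPM of both DCL1 copies (y axis, percent, starting at 40) in each library of DH12075, N99 and DH55 (x axis), with means and 1 SD over 3 replicates. In DH12075 the C05 copy held 55.5 to 61.2% in cotyledon and 45.5 to 48.8% in leaf, on either side of the dotted line at 50%.

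Summed over copies, DCL1 was highest in pennycress. Ordered by mean, the groups were pennycress cotyledon (11.3 TPM), pennycress leaf (11.2), N99 leaf (8.04 ± 1.12), N99 cotyledon (7.26 ± 0.997), DH12075 cotyledon (6.82 ± 0.795), DH55 cotyledon (5.45 ± 0.550), DH55 leaf (5.01 ± 0.274) and DH12075 leaf (4.91 ± 0.635 TPM, SD, n = 3). The libraries of neighbouring groups overlapped except at 2 steps, from pennycress leaf to N99 leaf and from DH12075 cotyledon to DH55 cotyledon. The DH12075 leaf libraries, at 4.17 to 5.29 TPM, overlapped those of *C. sativa* at 4.79 to 6.04 TPM, and the N99 libraries, at 6.12 to 9.18 TPM, did not.

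**Figure D4:**
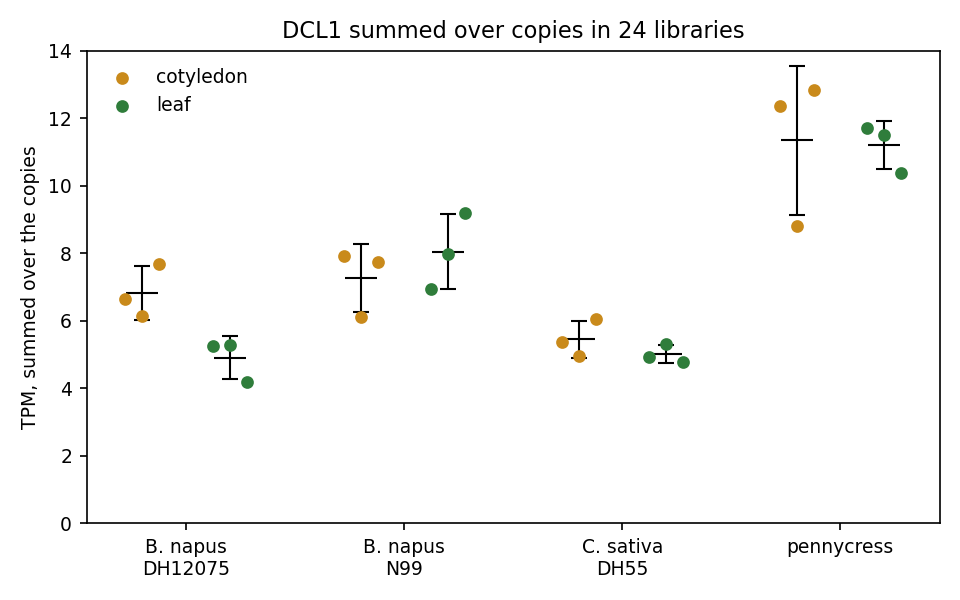
DCL1 TPM summed over the copies of a species (y axis) in the 24 libraries, by line (x axis) and tissue. Points are libraries, with means and 1 SD over 3 replicates; pennycress lies at 8.80 to 12.8 TPM and DH55 at 4.79 to 6.04 TPM.

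The species were compared over the 472 genes paired in all of them with enough expression, with DH12075 standing for *B. napus*. On the log2 scale of summed TPM + 1, pennycress was above *B. napus* by 0.85 (SE 0.093, limma adjusted p = 1.79e-07) and above *C. sativa* by 0.97 (SE 0.093, adjusted p = 3.43e-08). All 36 pairs of libraries went the same way in both comparisons. However, 89.8% of the genes were called between pennycress and *B. napus* and 66.5% of all 472 were called higher in pennycress, and against *C. sativa* these shares were 88.8% and 61.4%. The median gene differed by 0.93 and 0.66, so the excess of DCL1 in pennycress over *B. napus* was near that of the median gene. After rescaling over the genes compared it was 0.24 (adjusted p = 0.0198), and 0.69 against *C. sativa*. The median gene then differed by 0.36 and 0.38. With N99 in place of DH12075 the difference of DCL1 from *B. napus* was 0.50, beside a median of 0.87. Taking only the largest copy of each species it was 1.54, and 1.68 against *C. sativa*. Under that setting the median gene differed by 1.48 and 1.49, and 93.9% and 90.4% of the genes were called. *C. sativa* and *B. napus* did not pass the test (difference -0.12, interval -0.32 to 0.07, limma adjusted p = 0.235), where 79.0% of the genes were called. That contrast with DH12075 became -0.45 and was called after rescaling over the genes compared (adjusted p = 0.000278), where 81.8% of the genes were called. With N99 in place of DH12075, without that rescaling, it was -0.47 (adjusted p = 0.00063), where 77.7% were called. In an exact permutation of species labels within tissue, pennycress against *B. napus* and against *C. sativa* reached p = 0.005, the smallest possible. For DCL1 a difference between species in the tissue effect did not pass the threshold (limma F test, F = 2.57, adjusted p = 0.145), while 57.4% of the genes did.

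Other genes of the pathway were taken from 3 lists of 16 genes in all, of which 7 were paired with *B. napus* IDs, 11 with *C. sativa* IDs and 16 with pennycress IDs. Only part of the study's summed table was used, and the *A. thaliana* IDs of all 16 begin with AT1G. SERRATE and AGO1 are not among them, so the lists are not a survey of the pathway. Among partners of DCL1 in miRNA processing, only MAC5A, an RNA-binding protein of the MOS4-associated complex, was paired in *B. napus*. In DH12075 both of its copies rose from cotyledon to leaf, by 0.66 (BnaA08g036540.3DH, 10.9 ± 1.88 to 17.8 ± 2.61 TPM, limma adjusted p = 0.0119) and 0.46 (BnaC08g003260.3DH, 8.72 ± 0.977 to 12.4 ± 1.58 TPM, adjusted p = 0.0254). The second call was lost with the replicate block and without replicate 1 or 2 of either tissue (adjusted p up to 0.0876). Their median was 0.56 beside -0.08 over all IDs, and the direction was opposite to that of the C05 copy of DCL1. Of all IDs in DH12075, 20.8% were called higher in leaf. In *C. sativa* 1 of the 15 IDs of 5 partner genes fell in leaf and none rose, where 29.5% of all IDs fell and 7.97% rose. The median was -0.17 beside -0.19 over all IDs. The one that fell was a MAC5A copy (Csa03g010770, 9.68 ± 0.783 to 7.45 ± 0.512 TPM), and its call was lost in all 6 fits that left out 1 library (adjusted p of 0.0526 to 0.106). The 3 HYL1 copies were at 1.18 to 2.88 TPM on average, and their differences of -0.29 to -0.20 did not pass. In pennycress 1 of 7 partners was called, beside 36.1% of all IDs. This was RACK1A, a scaffold protein of ribosomes and miRNA complexes, which fell from 68.3 ± 16.3 to 42.3 ± 7.29 TPM (log2 difference -0.66, limma adjusted p = 0.0455). This call was lost with the replicate block (adjusted p = 0.116) and without replicate 1 or 2 of either tissue (adjusted p of 0.0941 to 0.137). It was also lost after quantile normalization, after rescaling without the 10 most abundant genes and without a filter. The median of the 7 was -0.09 beside -0.10 over all IDs.

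Of other RNA silencing genes, RDR1 encodes an RNA-dependent RNA polymerase of antiviral silencing. Both of its *B. napus* copies fell in DH12075 leaf, from 2.89 ± 0.423 to 1.31 ± 0.425 TPM (BnaA06g011530.3DH, -0.76, limma adjusted p = 0.00717) and from 4.15 ± 0.882 to 2.20 ± 0.548 TPM (BnaC05g013490.3DH, -0.69, adjusted p = 0.0147). The second call was lost without cotyledon replicate 1 (adjusted p = 0.052). Both were higher in N99, by 0.98 and 0.85. In *C. sativa* the 2 RDR1 copies that passed the filter also fell in leaf, with differences of -0.49 and -0.45. The second of these, Csa17g020360, was no longer called without cotyledon replicate 1 or 3 or leaf replicate 1 or 2, or after quantile normalization (adjusted p up to 0.0553 with a library left out). In pennycress RDR1 was at 76.5 ± 7.01 TPM in cotyledon and 80.7 ± 9.18 TPM in leaf, and its summed level was above *B. napus* by 3.73 on the log2 scale. For DCL1 that difference was 0.85. The dsRNA-binding gene FDM1, which acts in RNA-directed DNA methylation, rose in pennycress leaf from 6.94 ± 0.397 to 16.0 ± 0.432 TPM (limma adjusted p = 0.000911). Its copy Csa14g019000 fell in *C. sativa* leaf (-0.47, limma adjusted p = 0.0136, not called after quantile normalization). Csa03g019690 and Csa17g021490, its other copies there, were not called (-0.08 and 0.02, limma adjusted p = 0.572 and 0.837). The FDM1 copy BnaA09g060610.3DH was higher in N99 than in DH12075 by 0.98. It was at 0.386 and 1.03 TPM in cotyledon and leaf of DH12075, under the filter in that line alone. With 2.16 and 2.53 TPM in N99, it entered the fit of both lines through N99. BnaC08g059760.3DH, the other copy, was not called between the lines (0.15, limma adjusted p = 0.275). One copy of the helicase SDE3 rose in DH12075 leaf (BnaA10g004480.3DH, 0.41, adjusted p = 0.0329), a call lost with the replicate block and without replicate 1 or 2 of either tissue (adjusted p up to 0.111). Over this list 1 ID rose and 2 fell of 5 tested in DH12075, 0 of 6 changed in N99, 3 of 6 fell in DH55 and 1 of 4 rose in pennycress. Over all IDs 20.8% rose and 29.5% fell in DH12075, 29.4% were called in N99, 29.5% fell in DH55 and 15.6% rose in pennycress.

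Among genes known in *A. thaliana* as miRNA targets, CSD1, a target of miR398, was called between tissues in 3 of the 4 lines. It fell in DH12075 leaf from 204 ± 5.60 to 135 ± 15.1 TPM (BnaA09g065270.3DH, -0.60, limma adjusted p = 0.00283) and from 320 ± 10.6 to 125 ± 21.2 TPM (BnaC08g065230.3DH, -1.36, adjusted p = 0.000252). All 3 *C. sativa* copies fell, with differences of -0.86 to -0.64. In pennycress it rose from 194 ± 26.8 to 328 ± 68.5 TPM (0.74, adjusted p = 0.0241). This rise no longer passed with the replicate block (adjusted p = 0.0562), nor without cotyledon replicate 1 or 3 or leaf replicate 1 or 2 (adjusted p of 0.0577 to 0.0813). The N99 copies, at -0.17 and -0.77, did not pass (limma adjusted p = 0.732 and 0.0746). Their line by tissue interactions did not pass either (adjusted p = 0.369 and 0.231), so a difference between the *B. napus* lines in this effect was not shown. Beside these, 29.5% of all IDs were called lower in leaf in DH12075 and in DH55, and 15.6% higher in pennycress. AFB3, an auxin receptor and target of miR393, fell in 1 of 3 *C. sativa* copies (Csa14g015810, -0.41, adjusted p = 0.0286), a call lost with the replicate block, after quantile normalization, without a filter, and without cotyledon or leaf replicate 1 or 3 (adjusted p up to 0.0845 with a library left out). In pennycress LCR, an F-box gene targeted by miR394, was at 32.2 ± 1.37 and 34.1 ± 3.66 TPM, and NLA, a ubiquitin ligase gene targeted by miR827, at 10.3 ± 0.822 and 7.60 ± 1.19 TPM, and neither passed. SPL10, a target of miR156, was below the filter in pennycress. Small RNAs were not analysed here, so these values say nothing of miRNA levels.

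Over the 3 lists together, 3 IDs rose and 4 fell of 9 tested in DH12075, 0 of 10 were called in N99 (1 at an unadjusted p under 0.05), 0 rose and 8 fell of 27 in DH55, and 2 rose and 1 fell of 15 in pennycress. Over all IDs 50.4, 29.4, 37.4 and 36.1% were called in these lines. The share of listed IDs that fell in DH55 was close to the 29.5% of all IDs, and in pennycress 15.6% of all IDs rose and 20.6% fell. The medians were 0.12, 0.13, -0.20 and 0.07 beside -0.08, 0.04, -0.19 and -0.10 over all IDs. Between the lines, 3 IDs were higher and 1 lower in N99 of 10 tested, beside 24.6% and 29.2% of all IDs, with a median of 0.10 beside -0.04. The FDM1 copy among the 3 was under the filter in DH12075 alone. The count of 0 in N99 rose to 2 when libraries were rescaled without their 10 most abundant genes, and to 1 without cotyledon replicate 2. The count of 7 called in DH12075 was 4 without cotyledon replicate 1. The 8 in DH55 became 5 without cotyledon replicate 1 or 3 or leaf replicate 1, and the 3 in pennycress became 1 without cotyledon replicate 1 or leaf replicate 1 or 2.

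**Figure D5:**
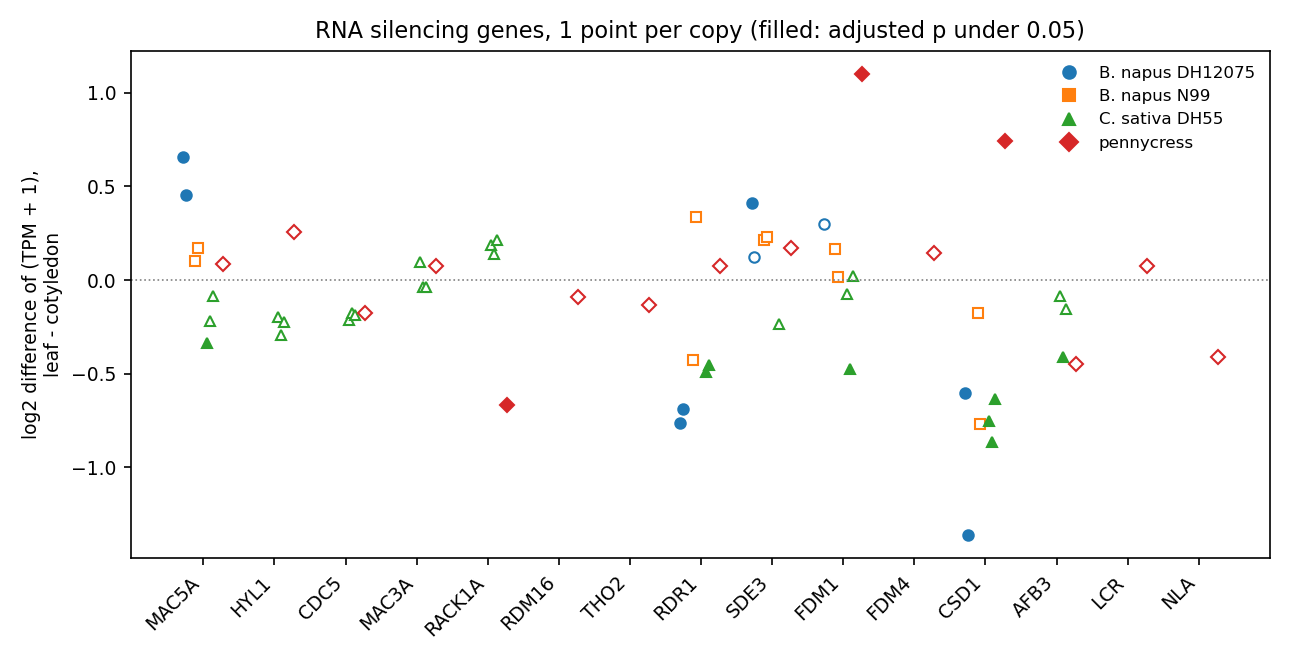
Log2 difference of TPM + 1 between leaf and cotyledon (y axis) for the listed RNA silencing genes (x axis), 1 point per copy with a mean of at least 1 TPM, by line. Filled points passed a limma adjusted p of 0.05; CSD1 lies at -1.36 to -0.60 in DH12075 and DH55 copies and at 0.74 in pennycress.

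The genes most like each copy across libraries were found by Pearson's r of log2(TPM + 1), as a description with no test, since libraries of one tissue and line share their composition. Over the 12 *B. napus* libraries and 12059 IDs, those most like the C05 copy were BnaC06g047210.3DH (r = 0.96) and BnaA02g040160.3DH (r = 0.95), and those most like the A10 copy were BnaA10g029340.3DH and BnaC08g051770.3DH (both r = 0.91). The copies themselves were related at r = 0.71, a value that 90.2% of the IDs ranked against C05 did not reach. Over the 6 DH55 libraries the IDs most like Csa14 were Csa16g013000 (r = 0.98) and Csa10g007430 (r = 0.96), and those most like Csa17 were Csa14g003200 and Csa14g034490 (both r = 0.99). The *C. sativa* copies were related at only r = 0.08. In pennycress CAH2074336 and CAH2063193 were most like CAH2039182 (both r = 0.99 over 6 libraries). None of these IDs carries a gene name in the tables used here.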

How the data were processed

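Reads were trimmed (Trimmomatic 0.32) and quantified (Salmon 1.10.0) by the authors against 1 transcriptome per species (DH12075 transcripts for both *B. napus* lines) and summarised them per gene with tximport. The authors deposited TPM, 1 table per line, each library summing to 1000000. The sources differ on the library kit (a TruSeq guide in the labels, a stranded mRNA kit in the methods). Each value column matched the title of 1 sample.

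IDs were paired with *A. thaliana* genes where the length-weighted sum of up to 4 (*B. napus*), 3 (*C. sativa*) or 1 (pennycress) IDs gave the study's summed values in all libraries. Part of that table was used, with 653, 1395 and 1616 genes paired. N99 used the pairs of DH12075. With libraries shuffled, which was done for part of the genes, none was paired with a single ID or a pair of IDs. Sets of 3 or 4 IDs were not checked in this way.

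Tests across genes used limma 3.58.1 (R 4.3.3) with a variance trend on log2(TPM + 1), for IDs with a mean of at least 1 TPM, with Benjamini-Hochberg adjustment over all IDs tested and a threshold of 0.05. Fold changes on this scale understate changes of low genes. Leaf and cotyledon were compared within each line (6 libraries), the *B. napus* lines over 12 libraries with tissue or in a model of 4 groups, and species over 18 libraries on sums of copies. Copy ratios used exact permutation tests that enumerated every arrangement (Python 3.11.15, numpy 2.4.6). limma was tested on simulated data. The alternatives were a pseudocount of 0.1, other filters, quantile normalization, rescaling, the replicate number as a block, N99 for DH12075, the largest copy, and leaving out each replicate.

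Named genes were the members, the IDs paired with listed genes, and for each member the 2 IDs with the highest correlation among those with a mean of at least 10 TPM. Members and lists were chosen with earlier results of these data known.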

Additional observations from a re-analysis of the deposited data

Results flagged for a closer look

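For all 7 listed genes that could be compared over the 3 species, though not for DCL1, the leaf against cotyledon effect on the summed copies differed between species in the limma F test, where 57.4% of the genes tested did so. For CSD1 (adjusted p = 9.34e-06) the leaf effect in pennycress was above that in *B. napus* (DH12075) by 1.77, and it was above that in *C. sativa* by 1.50. For FDM1 (adjusted p = 1.07e-05) it was above them by 0.61 and 1.38. For MAC5A (adjusted p = 0.00176) the effect was lower than in *B. napus* in both other species, at -0.83 in *C. sativa* and -0.51 in pennycress. For RDR1 (adjusted p = 0.00253) it was higher in pennycress, by 0.92 and 0.74. The differences were smaller for SDE3 (adjusted p = 0.0361) and for FDM4 (adjusted p = 0.0261), at -0.48 and -0.53 in *C. sativa* against *B. napus*. All FDM4 copies of DH12075 and DH55 had means of 0.00588 to 0.898 TPM by tissue, under the filter on their own. FDM4 passed the filter through pennycress, at 2.94 and 3.36 TPM in cotyledon and leaf. Its value for *C. sativa* against *B. napus* thus lies near the floor. For PCNA1, the marker of dividing cells (adjusted p = 0.0203), the leaf effect relative to that of *B. napus* was -1.66 in *C. sativa* and -1.88 in pennycress. Between the *B. napus* lines, the RDR1 copy BnaC05g013490.3DH had a line by tissue interaction of 1.03 (SE 0.27, limma adjusted p = 0.0266), with 4.15 and 2.20 TPM in cotyledon and leaf of DH12075 and 5.50 and 7.18 TPM in N99.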

How the results depend on the processing

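The fall of the C05 copy in DH12075 leaf and its excess in N99 leaf kept direction and call under every alternative that gave a value. With the replicate number as a replicate block, the C05 copy over both tissues (0.33, adjusted p = 0.071) and the A10 copy in leaf (0.45, adjusted p = 0.0515) no longer passed between the lines, and 1 listed ID was called in pennycress in place of 3. Deviations of libraries from their group mean correlated at -0.38 to 0.19 for same-numbered pairs, and 5 of 18 pairs were over 0.1. For differently numbered pairs these deviations correlated at -0.36 to 0.46. With 3 replicates per group, this check cannot tell whether the numbers pair the samples. Without a filter the C05 difference over both tissues (0.33) also no longer passed. Quantile normalization and rescaling without the 10 most abundant genes turned values near 0: the tissue difference became -0.0162 and -0.0905 for the C05 copy in N99, 0.0684 and 0.0402 in pennycress, 0.216 and 0.0263 for Csa14, and 0.0419 after quantile normalization for Csa17, none of them called. Under these 2 settings the A10 copy passed between lines over both tissues (0.30 and 0.36), and the interaction of the C05 copy passed (0.47 and 0.49). Quantile normalization moved the median tissue change of all DH55 IDs from -0.19 to 0.01, and the share of called IDs that were higher from 21.3 to 50.7%; in N99 rescaling moved that share from 58.4 to 46.3%. Rescaling gave 2 called listed IDs in N99. *C. sativa* against *B. napus* passed with N99 in place of DH12075 (-0.47) and after rescaling over the genes compared (-0.45), where 77.7% and 81.8% of the genes were called. Leaving out 1 library each time gave ranges of -0.0306 to 0.142 (C05) between lines in cotyledon, 0.35 to 0.57 (A10) in leaf, and 0.27 to 0.41 (C05) and 0.22 to 0.34 (A10) over both tissues. For leaf against cotyledon the ranges were -0.0927 to 0.0796 (C05, N99), -0.160 to 0.0892 (pennycress) and -0.07 to 0.11 (Csa14), and listed IDs called were 4 to 7 in DH12075, 5 to 7 in DH55, 0 to 1 in N99 and 1 to 3 in pennycress. The causes were not tested. A mean of at least 5 TPM left no value for the *B. napus* and *C. sativa* copies. TPM give no counting error, so precision rests on 3 replicates per group.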
